A study of Mus musculus with 4 samples.

Results

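Ptgs2, the gene for the inducible cyclooxygenase (COX-2, prostaglandin-endoperoxide synthase 2), is described here across the 4 arrays of a study of catalase overexpression in mouse aortic endothelial cells. It is 1 of 398 probe sets to which the authors' deposited table gives a gene name, found by its symbol. By probe set ID (10350516, accession NM_011198) it was joined to the deposited values of 35557 transcript clusters, each a group of probes summarised as 1 value. What the clusters outside the 398 measure was not looked up here. Ptgs2 was selected on its values on these same arrays, as an inflammatory gene that is higher in the transgenic cells. Its own genotype difference is therefore given as a description with no test.

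The study set 2 arrays of wild type cells against 2 arrays of hcatTg cells, in which human catalase is overexpressed. Catalase removes hydrogen peroxide. Both groups were mouse aortic endothelial cells (MAECs) of the strain C57BL/6J, grown to 80% confluence, kept serum-free for 12 h and then given 10% fetal bovine serum (FBS) for 12 h, each array holding an independent RNA sample on an Affymetrix Mouse Gene 1.0 ST array. The sources used here give neither the promoter of the transgene, nor the number and age of the animals, nor whether each RNA sample came from its own animal. A p-value therefore refers to the spread between RNA samples only. In cultured cells measured in bulk, fewer cells of a type and less RNA per cell cannot be told apart.

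Cyclooxygenases convert arachidonic acid, which phospholipases cut from membrane lipids, into prostaglandin H2. Terminal synthases then turn prostaglandin H2 into the separate prostanoids, and in endothelium prostacyclin is a main product, which relaxes vessels and restrains platelets. Ptgs1 is expressed steadily in most tissues, whereas Ptgs2 is an immediate-early gene that serum, growth factors, cytokines and shear stress induce, and its mRNA is short-lived. Its transcription is known to be driven through C/EBP, cAMP response, E-box and NF-kB elements near its start, and peroxide is needed for the enzyme's catalysis.

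The sequence before the Ptgs2 start is shown because those elements define the gene as inducible, and that before Il6 is shown because Il6, an inflammatory gene of the same NF-kB group, differed in the opposite direction on these arrays (below). Both come from RefSeq on GRCm38.p6, plus strand, and run 5′ to 3′ over the 250 bases before the annotated start, at chr1:150099781-150100030 for Ptgs2 and chr5:30012864-30013113 for Il6. The third line is the stretch chr1:150100037-150100060 of Ptgs2, from base 7 to base 30 after its annotated start. Capitals mark exact matches on either strand to the motifs searched, which were the E-box CACGTG, the cAMP response element core TGACGT, the C/EBP motif TTGCGCAA, the AP-1 motif TGANTCA, the TATA box TATAAA and the NF-kB consensus.
Ptgs2: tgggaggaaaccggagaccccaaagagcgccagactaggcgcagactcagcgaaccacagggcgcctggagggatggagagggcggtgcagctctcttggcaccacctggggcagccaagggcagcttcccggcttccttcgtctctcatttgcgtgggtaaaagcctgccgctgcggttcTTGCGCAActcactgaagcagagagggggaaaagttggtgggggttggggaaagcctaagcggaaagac
Il6: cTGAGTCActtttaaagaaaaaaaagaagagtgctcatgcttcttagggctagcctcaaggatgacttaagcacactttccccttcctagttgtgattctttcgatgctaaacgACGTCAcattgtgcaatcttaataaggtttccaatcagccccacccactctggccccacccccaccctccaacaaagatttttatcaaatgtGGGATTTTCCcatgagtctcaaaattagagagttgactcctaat
Ptgs2 after the start: accactACGTCACGTGgagtccgc

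The C/EBP motif lies at bases -69 to -62 of Ptgs2 and was found in 0.183% of the 32851 RefSeq promoter windows of 300 bases (250 before and 50 after the start). In the third line the cAMP response element core (bases 13 to 18, on the minus strand, a motif in 7.51% of windows) overlaps the E-box (bases 17 to 22, in 7.15% of windows). Il6 also holds the cAMP response element core, at bases -136 to -131, and in addition an AP-1 motif (7.81% of windows) and the NF-kB consensus at bases -44 to -35 (8.46% of windows). The last 2 motifs were not found in the 300 bases of Ptgs2, and the TATA box was found in the window of neither gene. This says only that these letters are not in these windows. The windows of Pla2g4a, which was higher in hcatTg like Ptgs2 (below), were searched too and held only the TATA box among these motifs. The motifs are descriptions of sequence, not sites shown to be bound, and their positions count from the annotated start only. Whether they bear on the direction of any gene's difference was not tested.

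Ptgs2 gave higher values in hcatTg cells than in wild type cells on every array. Its deposited log2 value was 10.07 and 10.20 on wild type replicates 1 and 2, and 11.75 and 12.43 on hcatTg replicates 1 and 2. The genotypes did not overlap, and the lower hcatTg array stood 1.54 log2 units above the higher wild type array. The wild type arrays lay close together, and the hcatTg arrays lay farther apart, with second minus first array at 0.13 in wild type and 0.69 in hcatTg. Over all clusters both hcatTg arrays were above both wild type arrays in 2.53%, and below both in 17.8%. Ptgs2 was selected for lying above, so its place among the former supports nothing.

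The means were 10.14 ± 0.0928 in wild type and 12.09 ± 0.487 in hcatTg (log2, SD, n = 2 arrays each). The difference, hcatTg minus wild type, was 1.95 ± 0.350 log2 units (SE from the spread within the groups, n = 2 arrays per genotype), a 3.87-fold higher level. It was 1.67 between the arrays numbered 1 and 2.23 between those numbered 2, or 3.19-fold and 4.69-fold. The authors' deposited table, which calls these pairs a first and a second time, gives Ptgs2 a fold of 2.91 at the first time, 4.69 at the second and 3.80 on average. Its first-time RMA (robust multi-array average) signals are 10.87 for wild type and 12.41 for hcatTg, from another normalization than the value table, so these levels cannot be set beside the 4 values above.

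Median centring brought the 2 pair differences closer together, whereas quantile normalization left them apart. The array medians were 5.75 and 6.02 in wild type and 5.40 and 6.00 in hcatTg, and all clusters together shifted by a median of -0.37 log2 units in the first pair and 0.01 in the second. Less its array's median, Ptgs2 lay at 4.33 and 4.18 in wild type and at 6.35 and 6.43 in hcatTg. On this scale the arrays of a genotype differed by 0.14 in wild type and 0.08 in hcatTg, the means being 4.26 ± 0.102 and 6.39 ± 0.0581 (SD, n = 2 each), and the pair differences were 2.02 and 2.25. Median centring thus gave a mean difference of 2.13, and quantile normalization gave 2.03, so neither scaling turned its direction.

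**Figure D1:**
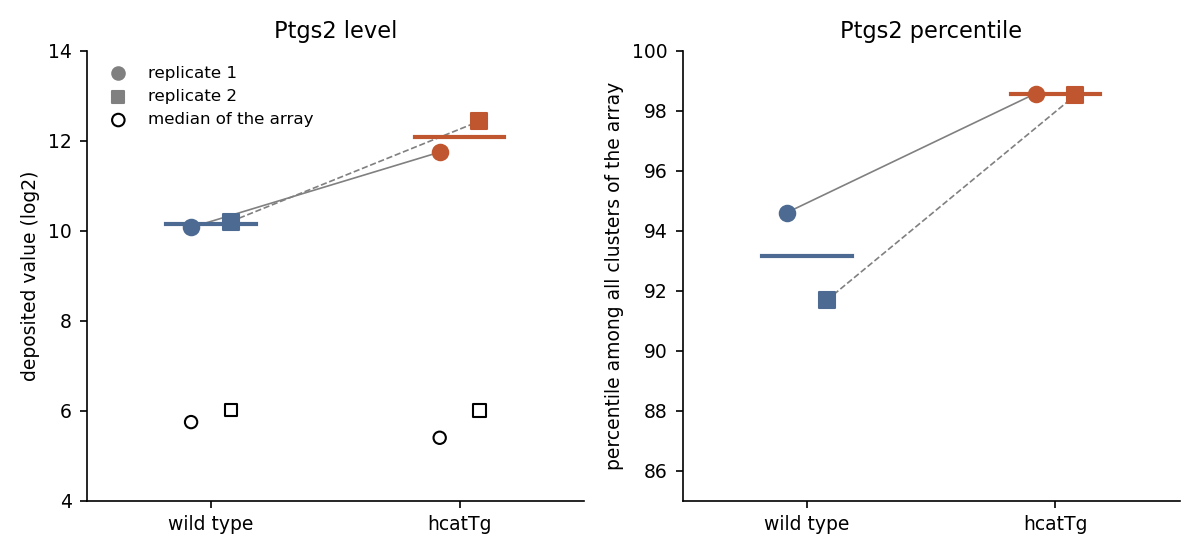
Ptgs2 on the 4 arrays: the left panel gives the deposited log2 value (filled) with each array's median (open), the right panel the percentile of Ptgs2 among all 35557 clusters of the same array. Bars are genotype means of 2 arrays, circles are replicate 1, squares replicate 2, and grey lines join arrays of the same number; both hcatTg arrays lie above both wild type arrays, at percentiles 98.6 and 98.5 against 94.6 and 91.7.

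Among the values of each array, Ptgs2 lay at percentile 94.6 on replicate 1 and 91.7 on replicate 2. On the hcatTg arrays it stood at percentiles 98.6 and 98.5. Counted from the top, that is rank 1918 and 2958 of 35557 in wild type and rank 507 and 528 in hcatTg. The hcatTg arrays gave nearly the same rank although their values differed by 0.69, while the wild type arrays gave ranks far apart with nearly equal values. Among the 398 named probe sets Ptgs2 was 11 and 47 from the top on the wild type arrays and 2 on both hcatTg arrays. These are ranks of array values, and probes of different genes differ in brightness, so they do not order the genes by transcript number.

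By the size of its difference, Ptgs2 was 93 from the top of all 35557 clusters on average, 358 in the first pair and 60 in the second. At both times together, 37 clusters, itself included, were at least as far up as Ptgs2. A value at least 2-fold higher at both times, which holds for every higher probe set of the authors' table by its own folds, was found for 134 clusters (0.377%), and at least 2-fold lower by 419 (1.18%). Of the 93 named probe sets that were higher in hcatTg, Ptgs2 had the 48th largest mean difference, against a median of 1.97 log2 units over the 93.

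Ptgs2 started from a higher value in wild type cells than most clusters that were higher in hcatTg. In the band within 0.5 log2 units of its wild type mean there were 1664 clusters, and Ptgs2 was the only 1 of them that was at least 2-fold higher at both times, while 32 were at least 2-fold lower at both. The median difference over this band was -0.14, with the 1st and 99th percentiles at -1.50 and 1.11. Of the clusters at or above Ptgs2 on both wild type arrays (1854, itself included), 0 others were at least 2-fold higher at both times. The band was set after the values were seen, Ptgs2 was chosen for its difference, and these counts are descriptions with no test.

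**Figure D2:**
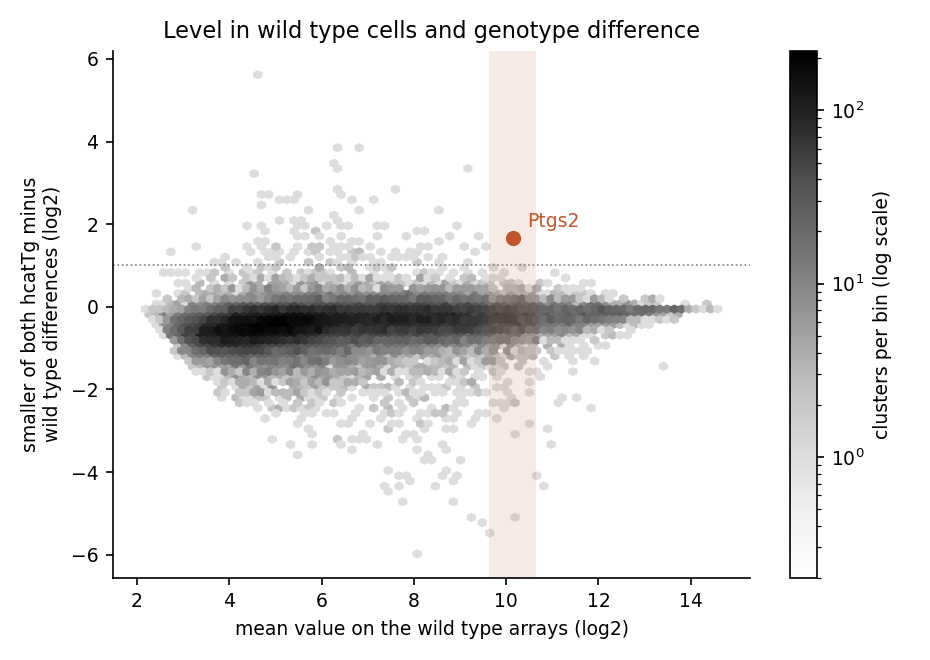
The x axis gives the mean of both wild type arrays (log2), the y axis the smaller of both hcatTg minus wild type differences (log2), for all 35557 clusters in bins shaded by count on a log scale. The shaded band spans 0.5 log2 units to either side of Ptgs2, the dotted line marks 2-fold higher at both times, and Ptgs2 is the only cluster of the band above it.

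The steps on either side of the cyclooxygenase could be followed where the authors' table names their genes. Of 64 genes on the 5 prostanoid and arachidonate lists, 6 were in that table, and beside Ptgs2 these were 1 higher and 4 lower in hcatTg cells. Lower probe sets make up 305 of the 398 named, so 4 of 5 is close to the make-up of the table. The other listed genes, among them Ptgs1, the prostaglandin E and prostacyclin synthases and the prostacyclin receptor, were not analysed here, since only that table pairs probe sets with names. A gene missing from it may or may not have changed. Limma, fitted over all clusters, called 0 of these 5 at an adjusted p below 0.05 (adjusted p = 1.00 for each, with 0.00844% of all clusters called). With the array pair as a block it called 5 of 5 (adjusted p = 1.1e-11 to 0.0432), against 3.27% of all clusters and 378 of the 398 named probe sets. With median centring added to the block it called 0 of 5 (0.0675% of all clusters, and 19 of the 398 named). When the 6636 lowest-numbered clusters were also left out it called 5 of 5 (5.37% of those tested, and 395 of the 398 named). Nearly every named probe set was called there, so 5 of 5 is no trait of these lists.

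Pla2g4a, the cytosolic phospholipase A2 that releases arachidonic acid for the cyclooxygenases, was the gene of the pathway that lay on the same side as Ptgs2. Its log2 value was 9.14 and 9.94 in wild type and 10.63 and 11.79 in hcatTg. The genotypes did not overlap, and within each genotype the second array was the higher. The difference was 1.67 ± 0.540 log2 units (SE, n = 2 per genotype, limma adjusted p = 1.00, 4e-05 with the block, and 0.0635 with block and median centring), 1.49 in the first pair and 1.85 in the second. Without hcatTg replicate 2 it was 1.09. This SE and those of the genes below are limma's moderated ones, which, unlike that of Ptgs2, also draw on the spread of all clusters. Pla2g4a is also the nearest protein-coding neighbour of Ptgs2 on chromosome 1 in the RefSeq table, and of the 4 nearest protein-coding genes on either side it was the only one in the authors' table.

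Ptger4, which encodes the prostaglandin E2 receptor EP4, differed the other way. It lay at 7.78 and 8.15 in wild type and at 6.67 and 6.46 in hcatTg, with no overlap, and the arrays of each genotype were close. The difference was -1.40 ± 0.445 log2 units (SE, n = 2 per genotype, limma adjusted p = 1.00, 0.00129 with the block, and 0.235 with block and median centring).

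Plcb4, a phospholipase C that acts on phosphoinositides, lay at 8.35 and 10.02 in wild type and at 6.39 and 7.95 in hcatTg. The genotypes did not overlap but stood closer than the arrays within each, and the pair differences were nearly equal, at -1.96 and -2.07. Ephx2, the soluble epoxide hydrolase that breaks down epoxides of arachidonic acid, lay at 6.68 and 9.41 in wild type and at 4.77 and 6.34 in hcatTg. Akr1c14, an aldo-keto reductase listed with prostanoid breakdown, differed by -1.05 ± 0.614 log2 units (SE, n = 2 per genotype, limma adjusted p = 1.00), with overlap of the genotypes. Its pair differences were nearly equal, at -1.08 and -1.01. Leaving out any 1 of the 4 arrays, which breaks a pair, moved the mean difference of Akr1c14 by over 1.5 times. It was -0.36 and -1.74 without hcatTg replicates 1 and 2, and -0.39 and -1.70 without wild type replicates 2 and 1. The difference of Plcb4, -2.01, was -1.18 without wild type replicate 2 and -1.23 without hcatTg replicate 1, and that of Ephx2, -2.49, was -1.13 and -3.86 without wild type replicates 2 and 1.

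The list of Ptgs2 transcription regulators holds 27 genes. The authors' table names 4 of these, of which 3 had a higher and 1 a lower mean in hcatTg cells. Of the 398 named probe sets, 93 were higher and 305 lower. The list was chosen with earlier results of these data known, so this count is a description. Limma called 0 of the 4 without the block (0.00844% of all clusters called) and 4 with it (3.27%, and 378 of the 398 named probe sets). With median centring added to the block it called 0 of the 4 (0.0675%, and 19 of the 398 named). It called 4 when the lowest-numbered clusters were left out as well (5.37%, and 395 of the 398 named). Cebpd, which encodes a C/EBP factor of the kind that binds the motif in the first line above, lay at 6.68 and 8.98 in wild type and at 5.78 and 6.88 in hcatTg. Its values overlapped between the genotypes, and its difference was -1.50 ± 0.724 log2 units (SE, n = 2 per genotype, limma adjusted p = 1.00, 0.000381 with the block, and 0.344 with block and median centring). The Cebpd difference was -0.90 in the first pair and -2.10 in the second. It was -0.36 without wild type replicate 2, -0.95 without hcatTg replicate 1 and -2.65 without wild type replicate 1, so its size rested on single arrays.

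The other genes of that list in the table, 2 for steroid receptors and Ahr, had higher means in hcatTg cells. Pgr, the progesterone receptor gene, known in rodent ovary to act upstream of ovulatory genes, differed by 4.13 ± 0.718 log2 units (SE, n = 2 per genotype, limma adjusted p = 0.245). Esr1, the estrogen receptor alpha gene, lay at 5.98 and 6.39 in wild type and at 7.52 and 9.05 in hcatTg, a difference of 2.10, or 1.34 without hcatTg replicate 2. Ahr, the aryl hydrocarbon receptor gene, differed by 1.77 with overlapping values. The Ahr difference was 2.13 in the first pair and 1.40 in the second. With single arrays left out, which breaks a pair, it was 0.55 without wild type replicate 1, 0.92 without hcatTg replicate 2 and 2.98 without wild type replicate 2. No gene of the list of Ptgs2 mRNA stability factors, such as Zfp36 and Elavl1, was in the authors' table, so the control of mRNA decay was not analysed here. The list of oxidant sources and antioxidant enzymes holds 26 genes, of which 3 were in the table. Mt1, Mt2 and Msrb1 differed by -1.47, -2.70 and -1.24, with overlapping values for Mt1 and Msrb1. All 3 had lower means in hcatTg cells, as had 305 of the 398 named probe sets.

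Ptgs2 is usually induced together with the NF-kB group of inflammatory genes, and here it stood apart from most of those that could be named. Of 37 listed genes, 10 were in the table. Beside Ptgs2, 1 of the other 9 was higher and 8 were lower in hcatTg, with a median difference of -2.19 log2 units, against -1.36 over the 398 named probe sets and -0.18 over all clusters. Lower genes make up 305 of the 398, so 8 of 9 is close to the make-up of the table. Limma called 0 of the 9 (lowest adjusted p = 0.137, for Il33), against 0.00844% of all clusters. It called 9 with the block (3.27% of all clusters, and 378 of the 398 named) and 0 with median centring added (0.0675%, and 19 of the 398). It called 9 when the lowest-numbered clusters were left out as well (5.37%, and 395 of the 398).

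Il6, the interleukin-6 gene whose promoter is printed above, lay at 6.41 and 8.12 in wild type and at 3.92 and 5.37 in hcatTg. Both hcatTg arrays were below both wild type arrays, and within each genotype the second array was the higher. The difference was -2.62 ± 0.670 log2 units (SE, n = 2 per genotype, limma adjusted p = 0.960, 6.24e-13 with the block, and 0.0652 with block and median centring). Ccl2, the monocyte chemoattractant gene, lay at 8.25 and 8.59 in wild type and at 5.74 and 6.95 in hcatTg, again without overlap.

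Il1rl1, which encodes the ST2 receptor for interleukin-33, was the other higher gene of the list. It lay at 5.92 and 5.87 in wild type and at 7.83 and 8.76 in hcatTg. On these deposited values its wild type arrays were close and its hcatTg arrays apart, like those of Ptgs2. The difference was 2.40 ± 0.484 log2 units (SE, n = 2 per genotype, limma adjusted p = 0.405). Il33, the gene for its ligand, lay at 8.32 and 9.53 in wild type and at 5.42 and 5.37 in hcatTg, a difference of -3.53.

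Il1r1, the interleukin-1 receptor gene, differed by -1.83 log2 units and Ccl7, another monocyte chemokine gene, by -2.19, both without overlap. The acute-phase gene Saa3 moved with single arrays, lying at 5.48 and 10.52 in wild type and at 3.98 and 7.10 in hcatTg. Its pair differences were -1.49 and -3.42. The mean difference of -2.46 became 0.06 without wild type replicate 2 and -4.98 without wild type replicate 1. It became -0.90 without hcatTg replicate 1 and -4.01 without hcatTg replicate 2. Lcn2, the lipocalin-2 gene, lay far higher on wild type replicate 2 than on replicate 1, and its difference was -1.66 in the first pair and -5.98 in the second. The Lcn2 mean difference of -3.82 was -1.37 and -6.28 without wild type replicates 2 and 1. The adhesion molecule gene Icam1 differed by -1.12, or -0.57 without hcatTg replicate 1 and -0.66 without wild type replicate 2. Without hcatTg replicate 1 the difference of Il1r1 was -1.08, and without wild type replicate 2 that of Ccl7 was -1.43. Leaving out 1 array breaks a pair. The pair differences were -1.21 and -1.04 for Icam1, -2.03 and -1.63 for Il1r1, and -2.01 and -2.36 for Ccl7.

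**Figure D3:**
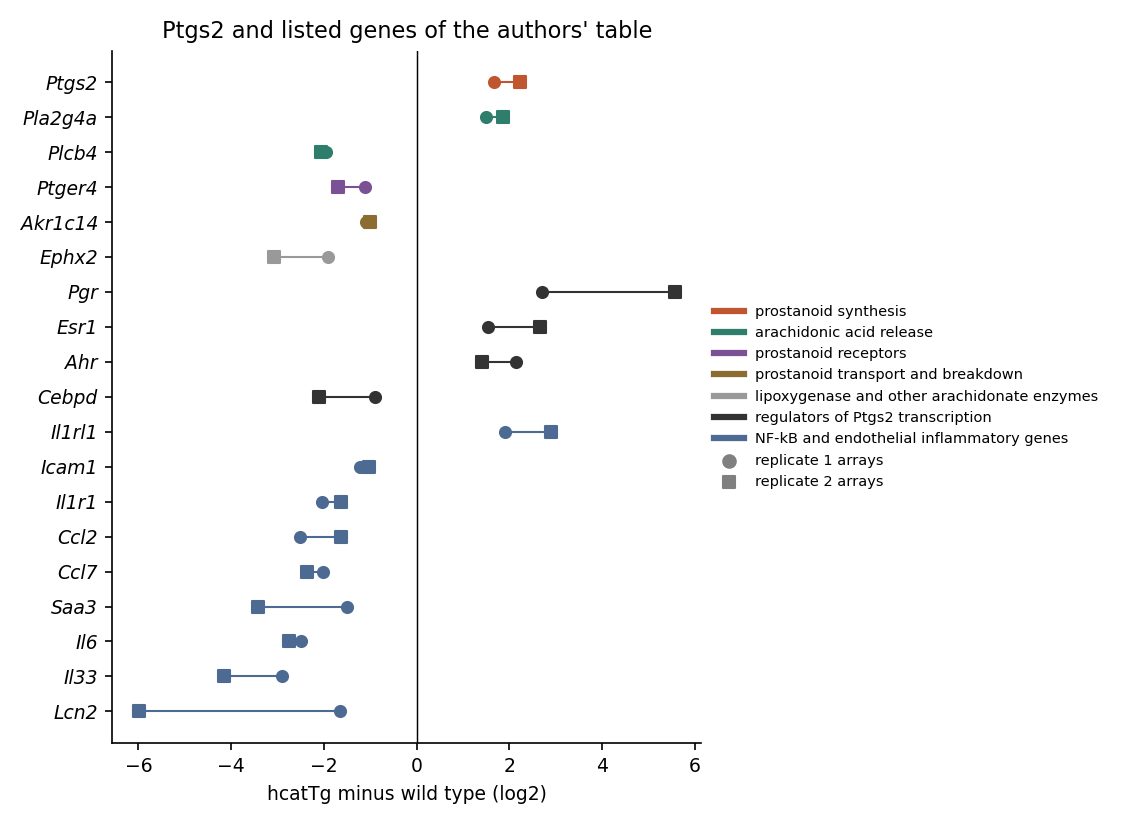
Differences of Ptgs2 and of genes from the lists that the authors' table names, as hcatTg minus wild type in log2 units on the x axis, with circles for the arrays numbered 1, squares for those numbered 2 and colours for the lists. Ptgs2, Pla2g4a, Il1rl1 and 3 transcription factor genes lie right of 0, and the other genes drawn, Ptger4, Il6 and Ccl2 among them, lie left of it in both pairs.

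**Figure D4:**
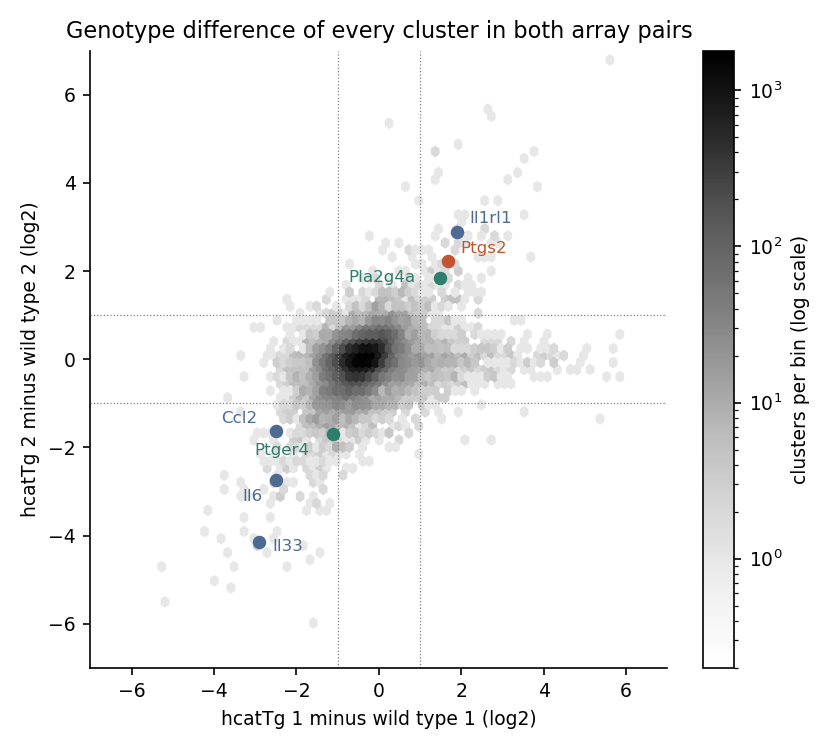
All 35557 clusters in bins shaded by count (log scale), with the difference between the arrays numbered 1 on the x axis and between those numbered 2 on the y axis (log2, hcatTg minus wild type); dotted lines mark 2-fold. Ptgs2, at 1.67 and 2.23, lies between Pla2g4a and Il1rl1 on the upper right, and Il6, Ccl2, Il33 and Ptger4 lie on the lower left.

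Beside catalase, the genotypes differed in another respect, since the sex-linked genes in the table separated them on every array. Xist, expressed from the inactive X chromosome of female cells, lay at 4.71 and 4.66 in wild type and at 10.33 and 11.45 in hcatTg, and 4 Y-linked genes were lower on both hcatTg arrays. Genotype and sex of the cells cannot be told apart in this design, for Ptgs2 as for any other gene given here.

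Markers of other cells could be read only where the authors' table names them. That table holds only probe sets at least 2-fold changed at both times, so every marker seen in it had to differ. The other listed markers were not analysed here. The part of other cells in the Ptgs2 difference was not tested. Of 3 macrophage and leukocyte markers in the table, of 10 listed, Cd53 was higher and Lcp1 and Lyz2 were lower on both hcatTg arrays, and their summed linear values ran from 188 to 422 in wild type and from 342 to 668 in hcatTg. Of 5 fibroblast and matrix markers (of 13 listed), Mmp2 and Thbs2 were higher and Col5a1, Fbln1 and Pcolce2 lower, with summed values of 2011 to 4302 and 5300 to 13108. In hcatTg the leukocyte sum was mostly Cd53 (8.25 and 9.27, log2) and the matrix sum mostly Thbs2 (11.92 and 13.33), while most markers of both lists were lower. Such sums follow the brightest probe set and do not measure the amount of a cell type. All 5 smooth muscle and mural markers (of 12) were lower at both times, 1 of them with overlapping values, with sums of 1331 to 4605 and 397 to 1501. Of 4 mesothelial and epithelial markers (of 10) 2 were higher and 2 lower, with sums of 1537 to 1914 and 967 to 1378. For all these counts, 305 of the 398 named probe sets were lower and 93 higher in hcatTg. Of all clusters, 17.8% had both hcatTg arrays below both wild type arrays and 2.53% had both above. No marker is at 0 on this scale, which has no measured background.

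The endothelial label could be checked only through Kdr and Eng, 2 of 15 listed markers. Kdr, the VEGF receptor gene, lay at 5.63 and 4.67 in wild type, below the array medians, and at 6.68 and 8.24 in hcatTg. Eng, a TGF-beta co-receptor gene, lay above the array medians on all 4 arrays, at 9.57, 10.15, 8.40 and 8.71. The defining markers Pecam1 and Cdh5 were not analysed here.

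The genes whose profile was most like that of Ptgs2 were sought among the other 397 named probe sets, by the Euclidean distance over the 4 arrays after each probe set's own mean was subtracted. The 8 nearest were Dhrs9, Epb41l4a, Ror2, Uchl1, Mboat2, Ptprf, Lipg and Btbd3, at distances of 0.15 to 0.33 log2 units, against a median of 0.92 for the named genes that were higher. The 9th lay at 0.35, so the set has no sharp edge, and of all 35556 other clusters 10 lay within the distance of the 8th. None of the 8 was on a list of prostanoid or inflammatory genes. Only 21 of the 397 were on any pathway list, so this says little about the 8.

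Dhrs9, a short-chain dehydrogenase gene, was the nearest, at 5.22 and 5.54 in wild type and 7.04 and 7.64 in hcatTg. Its difference of 1.97 log2 units was almost that of Ptgs2, from a much lower value on the array. Lipg, the endothelial lipase gene, lay at 4.87 and 4.72 in wild type and at 6.68 and 7.25 in hcatTg. Ror2, a Wnt5a receptor gene, and Uchl1, a deubiquitinase gene, differed by 1.78 and 1.80. Mboat2, a lysophospholipid acyltransferase gene, which returns fatty acids to membrane lipids, differed by 2.02. Ptprf, a receptor tyrosine phosphatase gene, differed by 1.74, Btbd3 by 2.28 and Epb41l4a by 1.83.

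Their differences ran from 1.74 to 2.28, and all 8 had both hcatTg arrays above both wild type arrays (2.53% of all clusters). Limma called 0 of the 8 (adjusted p = 0.429 to 1.00), against 0.00844% of all clusters. It called 8 with the block (3.27%, and 378 of the 398 named) and 0 with median centring added (0.0675%, and 19 of the 398). It called 8 when the lowest-numbered clusters were left out as well (5.37%, and 395 of the 398). Since the 8 were picked for likeness to a gene chosen for its difference, these counts describe the choice. Median centring shifts every probe set alike and leaves the distances as they are, whereas after quantile normalization 4 of the 8 were still among the nearest 8 and the farthest was 24 in the order. With 4 arrays in 2 groups, likeness of this kind says little beyond a similar size of difference at both times.

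**Figure D5:**
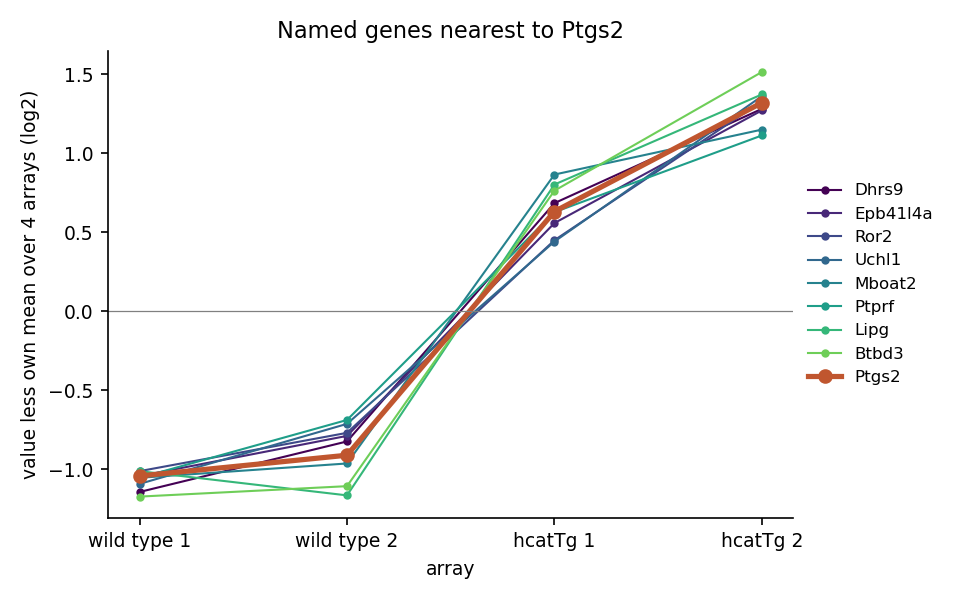
Log2 values less each gene's own mean over the 4 arrays (y axis) on each array (x axis) for Ptgs2 (thick line) and the 8 named genes nearest to it. All 9 lie below 0 on both wild type arrays and above 0 on both hcatTg arrays, with hcatTg replicate 2 the highest for each.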

How the data were processed

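The value table holds log2 values that the authors deposited for 35557 clusters on 4 arrays. The submitters' processing notes name Affymetrix Expression Console; version, annotation and build were not given in the sources used here. Per the file headers, the authors' table holds log2 RMA signals of the first array pair, a linear ratio and signed fold scores for 398 probe sets. Its smallest absolute fold at either time is 2.00, so it was selected on these arrays. The second-time folds match the value table to within 9e-05 log2 units, which sets its scale as log2. Of the names, 385 were matched by accession to RefSeq and 41 took another symbol.

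Limma (3.58.1, R 4.3.3; lmFit and eBayes) compared hcatTg with wild type over all 35557 clusters, and a call is an adjusted p (Benjamini-Hochberg) below 0.05; Ptgs2 itself was not tested. Because the authors' table speaks of 2 times and names the arrays of the first, same-numbered arrays were taken as pairs. Over clusters, deviations of paired arrays from their group means had r = 0.689 (clusters are no replicates). With the pair as a block, 1 residual degree of freedom is left per cluster. In all 14 fits were run, and limma was tested on simulated data. Ptgs2, the 9 pathway lists and 6 marker lists were chosen with earlier results of these data known. Named are Ptgs2, the 8 named probe sets nearest to it, and list members in the authors' table. Values are given for up to 6 per list and more where an account of a list needed them. The smooth muscle and mural, the mesothelial and epithelial, and the Y-linked markers are only counted, without names. The SE of Ptgs2 comes from its own values alone. That of every other gene is the moderated SE of the fit without the block, which draws a gene's variance towards that of all clusters. These SEs are not the plain spread of a gene's own arrays and cannot be set beside that of Ptgs2. The number of arrays limits the precision. Python 3.11.15 and matplotlib 3.10.9 drew the plots.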

Additional observations from a re-analysis of the deposited data

How the results depend on the processing

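The difference of Ptgs2 kept its direction under every setting run. With no overlap between the genotypes, leaving out 1 array could not turn it. The block leaves the mean difference of this balanced design unchanged. Ptgs2 was selected as higher, so the kept direction supports nothing. The difference was 1.61 to 2.30 log2 units when each array was left out in turn, 2.03 after quantile normalization, 2.13 after median centring, 1.95 with the replicate block, and 1.54 from the first-time signals of the authors' deposited table. The percentile of Ptgs2 depended on which clusters were ranked. Among clusters above the median level it was 89.2 and 83.4 in wild type and 97.1 and 97.0 in hcatTg, and among the named clusters 97.2 and 88.2, and 99.5 on both hcatTg arrays. With the 6636 lowest-numbered clusters left out, a choice made after seeing the data, it was 98.5 and 98.4 in hcatTg. These clusters precede all named ones, and on wild type replicate 1 they include 114 that lay at least 4-fold below the other arrays where those were within 1 log2 unit of each other. Of the 8 genes nearest to Ptgs2, 4 were shared after quantile normalization.

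Limma called 3 of 35557 clusters (643 at an unadjusted p below 0.05), and the cause of the changes in this count was not tested. Quantile normalization and median centring each gave 0 (unadjusted 1253 and 975). An intensity trend with robust fit gave 45. The replicate block gave 1161, falling to 24 once arrays were median centred and to 0 once they were quantile normalized (unadjusted 4189). Dropping single arrays gave 0 to 192, with 0 for either hcatTg array (unadjusted 440 for replicate 1 and 1340 for replicate 2), 103 for wild type replicate 1 and 192 for wild type replicate 2, where the lone sample is assumed to vary like the other genotype. Dropping the lowest-numbered clusters gave 52, or 1554 together with block and centring. Of the 21 list genes beside Ptgs2, limma called 21 with the replicate block and 21 in the fit with 1554 calls. Of the 398 named probe sets these fits called 378 and 395. Limma called 2 of the 21 each with trend and robust fit and without the lowest-numbered clusters. It called 0 on the deposited values and in the other settings with all arrays, among them the block with median centring and the block with quantile normalization.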
